A study of Homo sapiens with 20 samples.

Results

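The E2F transcription factors and the RB proteins were followed through 5 dose and time groups of cells in which p53 can be switched on. The genes are E2F1 to E2F8 with RB1 and RBL1, found by symbol in the platform annotation. They are 10 of the 18417 genes with a named transcript cluster (the probes of 1 transcription unit), each was read by 1 cluster, and none was removed by a filter. Every group is of B5/589, an immortalized line of human mammary epithelium, and all carry an inducible p53 transgene, the uninduced group included. One group was kept without doxycycline (0 ng) for 24 h, and the others had 3 ng or 5 ng of it, each dose for either 12 h or 24 h. Each group has 4 Affymetrix arrays of total RNA, 20 in all, and the labels give the doses in ng with no volume. The labels name neither the promoter of the transgene nor whether replicates are separate cultures, so that p-values refer to the spread between arrays, which may be technical. Uninduced cells were collected at 24 h only. A 12 h group set against them therefore differs in culture time as well as in dose, and the contributions of time and dose cannot be told apart there.

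E2F proteins bind promoters of genes for DNA replication and cell division. E2F1, E2F2 and E2F3 are the activators, E2F4 and E2F5 act mainly as repressors together with RB proteins, E2F6 represses without binding them, and E2F7 and E2F8 are atypical repressors that bind DNA without a DP partner. RB1 encodes the retinoblastoma protein and RBL1 its relative p107, the pocket proteins that hold E2F factors inactive until cyclin-dependent kinases phosphorylate them. In the p53 response, the kinase inhibitor p21, encoded by CDKN1A, keeps the pocket proteins unphosphorylated. Several genes of the family are themselves known E2F targets, so that their promoters hold E2F sites.

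To describe the promoters of the members, the 250 bases before the RefSeq gene start (GRCh38.p14) were searched on both strands for the E2F motif, spelled TTTCGCG or TTTGGCG, and for TTTGAA, the letters of the cell cycle homology region (CHR). Such windows at the gene start were found for 7 of the 10 members. E2F5 and E2F8 have no entry in the table used, and the RB1 entry starts inside the gene and was not used. Of these 7 members, 4 held an E2F motif, namely E2F1, E2F2, E2F3 and RBL1, against 2.65% of all 35116 windows of the same length (1.1% for TTTCGCG and 1.59% for TTTGGCG). The windows of E2F4, E2F6 and E2F7 held neither spelling. TTTGAA was found in the window of E2F3 and in 13.3% of all windows. The 4 windows with an E2F motif lie 5′ of their genes and are printed 5′ to 3′ on the gene's strand, with the motif in capitals, because 3 of them carry the motif as a close pair just before the start. They are chr20:33686386-33686635 (minus strand), chr1:23531234-23531483 (minus strand), chr6:20401629-20401878 (plus strand) and chr20:37095998-37096247 (minus strand).
E2F1: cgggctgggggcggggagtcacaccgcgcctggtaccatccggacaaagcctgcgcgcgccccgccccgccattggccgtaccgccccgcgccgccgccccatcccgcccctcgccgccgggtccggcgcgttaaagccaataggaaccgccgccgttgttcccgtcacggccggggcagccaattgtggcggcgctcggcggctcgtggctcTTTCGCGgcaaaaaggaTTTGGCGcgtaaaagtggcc
E2F2: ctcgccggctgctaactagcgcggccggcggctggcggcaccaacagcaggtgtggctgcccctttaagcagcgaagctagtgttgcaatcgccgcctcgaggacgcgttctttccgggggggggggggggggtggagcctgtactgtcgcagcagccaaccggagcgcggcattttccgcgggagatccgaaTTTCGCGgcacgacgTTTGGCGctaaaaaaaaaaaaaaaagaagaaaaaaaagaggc
E2F3: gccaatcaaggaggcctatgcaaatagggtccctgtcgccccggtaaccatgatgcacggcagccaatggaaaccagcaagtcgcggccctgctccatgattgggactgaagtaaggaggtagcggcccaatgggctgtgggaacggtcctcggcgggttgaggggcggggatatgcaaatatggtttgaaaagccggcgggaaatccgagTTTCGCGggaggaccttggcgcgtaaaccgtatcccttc
RBL1: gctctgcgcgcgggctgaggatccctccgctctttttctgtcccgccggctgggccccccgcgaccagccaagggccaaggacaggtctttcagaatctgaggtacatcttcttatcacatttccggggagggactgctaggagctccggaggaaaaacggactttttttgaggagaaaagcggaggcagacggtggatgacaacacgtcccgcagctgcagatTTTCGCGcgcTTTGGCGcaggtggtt
In E2F1 the motifs end 31 and 14 bases before the start, in E2F2 51 and 36 bases, and in RBL1 20 and 10 bases. The motif of E2F3 ends 33 bases before the start. These matches describe letters and do not show binding, and no relation of them to the levels was tested.

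Values are log2 signals, brought here to 1 common distribution over all arrays (quantile normalization), because the array medians ran from 4.54 to 5.54 as deposited. The median difference of all genes at 24 h was 0.08 for 3 ng and 0.07 for 5 ng against 0 ng, and -0.24 for each dose as deposited. With the deposited values, 6.1% and 16.1% of all called genes at 24 h rose, against 55.1% and 54.4% after normalization, and 25.6% and 44.3% with each array centred on its median. Changes are thus relative to genes in general, and the deposited change is given wherever it alters a call. A gene was called when its Benjamini-Hochberg adjusted p over all 18417 genes was under 0.05 in limma, a linear model with 1 mean per group, and errors of differences are standard errors (SE) of that model. CDKN1A, a check of the p53 response, had a mean of 8.34 ± 0.07 (SD, n = 4) at 0 ng, 9.53 ± 0.07 at 3 ng and 10.1 ± 0.08 at 5 ng after 24 h, with no overlap of the arrays. The transcript of the transgene was not analysed here. Of 8 epithelial markers 6 were measured, and EPCAM, CDH1, KRT5, KRT14, KRT8 and KRT18 lay between percentiles 95.1 and 99.9 of all genes by mean signal. Their mean per array was 11.19 to 11.33 at 0 ng and 11.71 to 11.78 at 5 ng and 24 h. EPCAM alone went the other way, from a mean of 10.96 to 10.39, and KRT5 went from 11.55 to 12.4. Among 8 markers of immune, endothelial and fibroblast cells, PTPRC, DCN and PECAM1 were at percentiles 2, 3.4 and 9.6, and CD68 at 87.9 and COL1A1 at 56.2 were the highest. The mean of these 8 was 3.22 to 3.34 at 0 ng and 3.26 to 3.61 at 5 ng and 24 h, and the part of these markers in the results was not tested.

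At 24 h most of the family was lower in induced cells, with E2F2, E2F4 and RB1 the members not called at 3 ng. Against 0 ng, 7 of the 10 members fell and 0 rose at 3 ng, where 27.9% of all genes were called (12.5% fell and 15.4% rose). At 5 ng 9 fell and RB1 rose, where 37.8% of all genes were called (17.2% fell and 20.6% rose). E2F8 and RBL1 had the largest falls of the members at either dose, and E2F1 and E2F5 followed at 5 ng. The arrays of the groups did not overlap for 7 members at 3 ng (30.1% of all genes) and for 9 at 5 ng (35.2% of all genes). The median member changed by -0.53 at 3 ng and -0.55 at 5 ng. As deposited, 9 members fell at each dose (23% and 23.5% of all genes fell), and RB1 was then among those that fell at 3 ng (-0.51) and did not pass at 5 ng (0.04). All comparisons with 0 ng share the same 4 control arrays. Fewer cycling cells in a culture and less transcript per cell cannot be told apart in such bulk RNA.

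**Figure D1:**
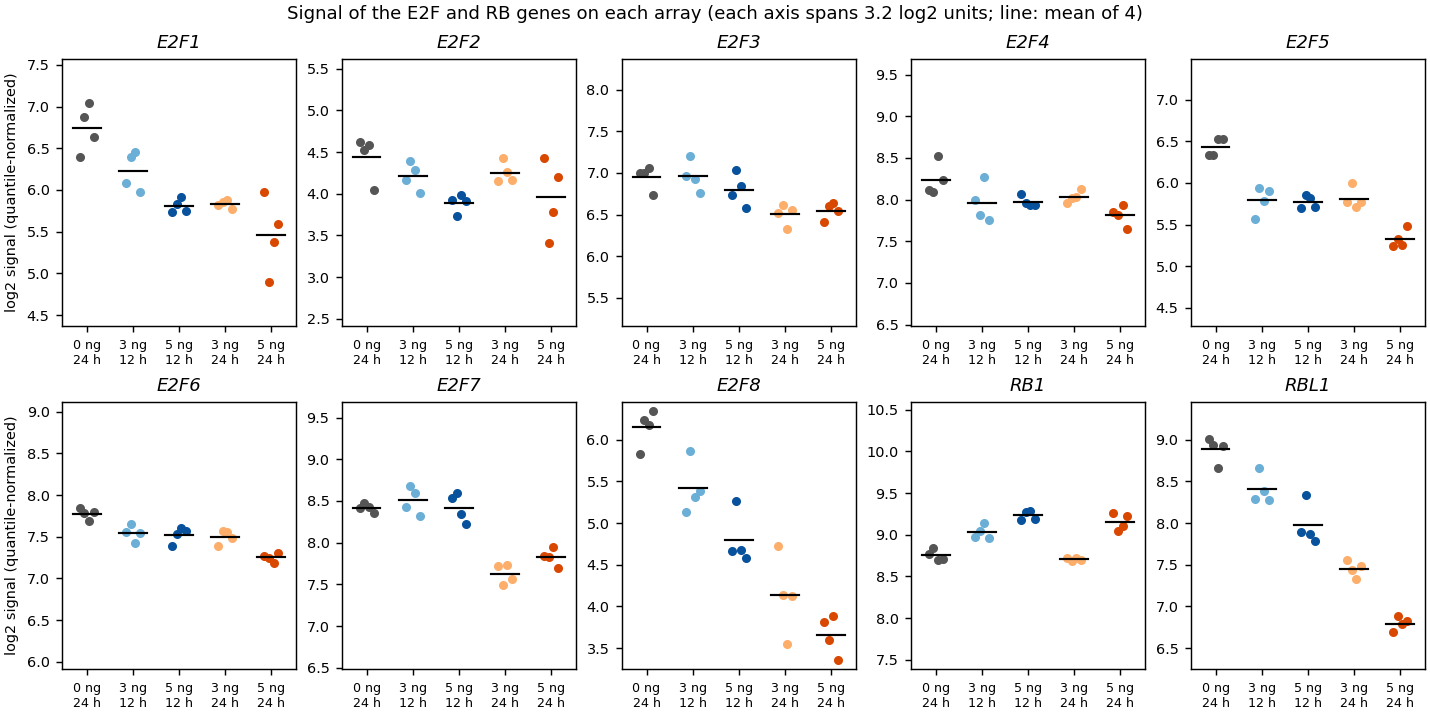
Log2 signal of the 10 genes on each of the 20 arrays after quantile normalization, 1 panel per gene and 1 column per dose and time group, with the mean of 4 arrays as a line; every vertical axis spans the same range. E2F8 and RBL1 step down through the groups, E2F7 is lower in the 24 h groups with doxycycline, and RB1 at 3 ng and 24 h lies at the level of 0 ng.

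Among the activators, E2F1, which drives entry into S phase, fell most. It read 6.39, 6.88, 7.04 and 6.64 on the 0 ng arrays, 5.82, 5.86, 5.88 and 5.77 at 3 ng and 24 h, and 5.98, 4.90, 5.38 and 5.59 at 5 ng and 24 h. The 12 h values were 6.08, 6.39, 6.46 and 5.97 at 3 ng and 5.74, 5.83, 5.91 and 5.75 at 5 ng. Every 0 ng array was above every 24 h array with doxycycline, and the 4 arrays of 5 ng at 24 h were the most widely spread of the groups (SD 0.45). The change against 0 ng at 24 h was -0.91 ± 0.18 at 3 ng (1.88-fold lower, limma adjusted p = 0.00064) and -1.28 ± 0.18 at 5 ng (2.42-fold lower, limma adjusted p = 1e-05). The difference between the doses at 24 h, -0.37, did not pass (95% interval -0.74 to 0.01, limma adjusted p = 0.23). Without replicate 1 of 5 ng it was -0.54 and passed (limma adjusted p = 0.047), and so did the change from 12 h to 24 h at 5 ng, which was -0.35 with all arrays (limma adjusted p = 0.20) and -0.52 without that replicate. Leaving out each compared array in turn, the dose difference ran from -0.54 to -0.18. The change over time at 5 ng ran from -0.52 to -0.16, so that single arrays moved both in either direction.

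E2F2, another activator, was a dim signal at percentile 30.1 of all genes. Its group means were 4.44 ± 0.27 (SD, n = 4) at 0 ng, 4.25 ± 0.13 at 3 ng and 3.96 ± 0.45 at 5 ng after 24 h. After 12 h they were 4.21 ± 0.16 at the lower dose and 3.89 ± 0.11 at the higher one. It fell at 5 ng and 24 h by 0.48 ± 0.17 (limma adjusted p = 0.035), with overlapping arrays. That call ended without replicate 1, 2 or 3 of 0 ng (-0.42, -0.46 and -0.44) or replicate 2 or 3 of 5 ng (-0.30 and -0.42), with centring (-0.50) and with only the compared groups in the fit (limma adjusted p = 0.15). At 3 ng and 24 h the difference of -0.19 did not pass (95% interval -0.55 to 0.18).

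E2F3, the third activator, was lower at 24 h at both doses by nearly the same amount. It ran from 6.73 to 7.06 at 0 ng, from 6.33 to 6.61 at 3 ng and from 6.41 to 6.64 at 5 ng after 24 h. The changes were -0.44 ± 0.11 (limma adjusted p = 0.0038) and -0.40 ± 0.11 (limma adjusted p = 0.0057), and -0.84 and -0.78 as deposited. The doses differed by 0.05 at 24 h (95% interval -0.18 to 0.27), and a difference of that size was not detectable with 4 arrays in each group. At 12 h, E2F3 had not passed at 3 ng (0.02) or at 5 ng (-0.15) against 0 ng.

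Of the canonical repressors, E2F5 fell further than E2F4. E2F5 read 6.33, 6.34, 6.53 and 6.53 at 0 ng, 5.77, 6.0, 5.71 and 5.77 at 3 ng and 24 h, and 5.24, 5.33, 5.26 and 5.48 at 5 ng and 24 h. Its 12 h arrays gave 5.57, 5.94, 5.78 and 5.90 at 3 ng and 5.70, 5.86, 5.82 and 5.71 at 5 ng. The uninduced arrays stood above all 16 others, the arrays of both 12 h groups and of 3 ng at 24 h shared a range, and those of 5 ng at 24 h lay below them. The change at 24 h was -0.62 ± 0.09 at 3 ng and -1.10 ± 0.09 at 5 ng (limma adjusted p = 2.9e-05 and 9.6e-09). The fall between the doses at 24 h, -0.48 ± 0.09 (limma adjusted p = 0.0012), was -0.51 as deposited and did not pass there (limma adjusted p = 0.37).

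E2F4, the main E2F of resting cells, was 1 of the brighter members, at percentile 80.1. It ran from 8.09 to 8.52 at 0 ng, from 7.96 to 8.13 at 3 ng and from 7.65 to 7.93 at 5 ng after 24 h. It fell at 5 ng and 24 h by 0.43 ± 0.11 (limma adjusted p = 0.0032; -0.84 as deposited). At 3 ng the change of -0.21 did not pass, but passed as deposited (-0.68) and with centring (-0.45). At 12 h the changes of -0.28 and -0.27 at 3 ng and 5 ng did not pass either, and passed as deposited (-0.49 and -0.54). The one at 3 ng also passed without replicate 3 of 3 ng (-0.38, limma adjusted p = 0.016). Leaving out each compared array in turn, it ran from -0.38 to -0.18.

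E2F6, a repressor of the Polycomb-related PRC1.6 complex, moved by small steps with little spread between arrays. Its means were 7.78 ± 0.07 (SD, n = 4) at 0 ng, 7.50 ± 0.09 at 3 ng and 7.26 ± 0.05 at 5 ng after 24 h. It fell by 0.28 ± 0.07 at 3 ng (limma adjusted p = 0.0029) and by 0.52 ± 0.07 at 5 ng (limma adjusted p = 2.6e-06), and as deposited by 0.74 and 0.92. The arrays of the 3 groups did not overlap. The fall from 3 ng to 5 ng, -0.24 (limma adjusted p = 0.020), ended as a call as deposited (-0.19), with centring (-0.14), with only the compared groups (limma adjusted p = 0.056), and without replicate 2 or 3 of 3 ng (-0.22 and -0.22) or replicate 3 of 5 ng (-0.22).

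The atypical repressors E2F7 and E2F8 differed in their course. E2F7, known as a p53 target that represses E2F genes, read 8.41, 8.47, 8.43 and 8.35 at 0 ng, 7.72, 7.49, 7.73 and 7.56 at 3 ng and 24 h, and 7.84, 7.83, 7.95 and 7.70 at 5 ng and 24 h. After 12 h its values were 8.43, 8.68, 8.60 and 8.32 at 3 ng and 8.53, 8.59, 8.34 and 8.22 at 5 ng. The arrays of both 12 h groups thus spanned the level of 0 ng, and the arrays of both 24 h groups with doxycycline lay below all others. The change at 24 h was -0.79 ± 0.09 at 3 ng and -0.58 ± 0.09 at 5 ng (limma adjusted p = 2.7e-06 and 4.5e-05; -1.25 and -0.99 as deposited). The 5 ng arrays averaged 0.21 above the 3 ng arrays at 24 h, which did not pass (95% interval 0.01 to 0.40, limma adjusted p = 0.19). Against 0 ng, E2F7 at 12 h differed by 0.09 at 3 ng (95% interval -0.10 to 0.29) and by 0.00 at 5 ng (95% interval -0.19 to 0.20), and these small values were -0.14 and -0.26 as deposited and -0.22 and -0.14 with centring, none of which passed. From 12 h to 24 h it fell by 0.88 ± 0.09 at 3 ng and by 0.59 ± 0.09 at 5 ng (limma adjusted p = 2.7e-06 and 0.00019).

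E2F8, the other atypical repressor, had the largest fall of the 10 genes. It read 5.83, 6.24, 6.18 and 6.34 at 0 ng, 4.72, 4.14, 3.55 and 4.13 at 3 ng and 24 h, and 3.81, 3.60, 3.88 and 3.36 at 5 ng and 24 h. The arrays of 12 h gave 5.13, 5.87, 5.31 and 5.39 at 3 ng and 4.67, 5.27, 4.68 and 4.58 at 5 ng. The 24 h arrays with doxycycline were far below the uninduced ones, and the arrays of the 2 doses overlapped at either time. At 24 h it was lower by 2.02 ± 0.22 on the log2 scale at 3 ng, which is 4.04-fold (limma adjusted p = 1e-06), and by 2.49 ± 0.22 at 5 ng, which is 5.60-fold (limma adjusted p = 2.9e-08). The doses did not differ past the threshold, by -0.47 at 24 h (95% interval -0.93 to -0.02, limma adjusted p = 0.21) or by -0.62 at 12 h (limma adjusted p = 0.16). E2F8 was a dim signal, at percentile 38.5 of all genes, with means of 4.13 and 3.66 at 3 ng and 5 ng after 24 h. Those lay near the means of the endothelial markers CDH5 (4.05) and VWF (3.65), and whether background limits the size of the changes was not tested. E2F8 had already fallen at 12 h with 5 ng, by 1.35 ± 0.22 (limma adjusted p = 0.00012). The fall at 12 h with 3 ng, -0.73 (limma adjusted p = 0.030), ended as a call without replicate 1, 3 or 4 of 3 ng (-0.63, -0.69 and -0.71), without replicate 2, 3 or 4 of 0 ng (-0.69, -0.71 and -0.66), and as deposited (-0.74, limma adjusted p = 0.15).

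The pocket proteins went apart. RBL1, the p107 gene, read 9.01, 8.94, 8.66 and 8.92 at 0 ng, 7.56, 7.44, 7.33 and 7.48 at 3 ng and 24 h, and 6.69, 6.88, 6.79 and 6.82 at 5 ng and 24 h. Values at 12 h were 8.29, 8.66, 8.38 and 8.28 at 3 ng and 7.89, 8.34, 7.87 and 7.79 at 5 ng. The 24 h groups with doxycycline each stood clear of the other groups. The highest array of 3 ng at 12 h (8.658) lay just below the lowest array of 0 ng (8.659), and the doses overlapped at 12 h. The change at 24 h was -1.43 ± 0.11 at 3 ng (2.69-fold lower) and -2.09 ± 0.11 at 5 ng (4.25-fold lower), with limma adjusted p = 2.4e-08 and 4.5e-11. The higher dose was lower than the lower dose by 0.66 on average at 24 h (limma adjusted p = 0.00062), and this was -0.62 as deposited and -0.58 with centring, where it did not pass (limma adjusted p = 0.16 and 0.085). The difference of the doses at 12 h, -0.43 ± 0.11 (limma adjusted p = 0.047), lost its call as deposited (-0.46), with centring (-0.27), with only the compared groups (limma adjusted p = 0.25), and without any replicate of 3 ng (-0.47, -0.35, -0.44 and -0.47 for replicates 1 to 4) or replicate 1, 3 or 4 of 5 ng (-0.40, -0.40 and -0.37).

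RB1 was the brightest member, at percentile 90.2, and its levels did not follow those of RBL1. It read 8.77, 8.84, 8.70 and 8.71 at 0 ng, 8.72, 8.69, 8.72 and 8.70 at 3 ng and 24 h, and 9.26, 9.04, 9.10 and 9.23 at 5 ng and 24 h. At 12 h it read 8.97, 9.05, 9.14 and 8.96 at 3 ng and 9.18, 9.27, 9.29 and 9.19 at 5 ng. The 4 arrays of 3 ng at 24 h lay within or beside the range of 0 ng, and the other 3 groups with doxycycline lay above it. At 24 h RB1 rose by 0.41 ± 0.06 at 5 ng (1.32-fold, limma adjusted p = 2.1e-05) and differed by -0.04 at 3 ng (95% interval -0.17 to 0.08, limma adjusted p = 0.64). The rise at 5 ng depended on the scaling, with 0.31 and no call after centring (limma adjusted p = 0.094) and 0.04 as deposited (limma adjusted p = 0.89). RB1 was higher at 5 ng than at 3 ng at 24 h by 0.45 ± 0.06 (limma adjusted p = 6.1e-05), and by 0.55 as deposited, where it did not pass (limma adjusted p = 0.070). At 12 h it rose by 0.28 at 3 ng and 0.48 at 5 ng against 0 ng, but these were -0.04 and 0.34 after centring and 0.04 and 0.23 as deposited, with no call. Its 5 ng arrays at 12 h all lay above its 3 ng arrays, and the difference of 0.21 did not pass (limma adjusted p = 0.080). From 12 h to 24 h at 3 ng it fell by 0.32 ± 0.06 (limma adjusted p = 0.0011), which did not pass after centring (-0.25).

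**Figure D2:**
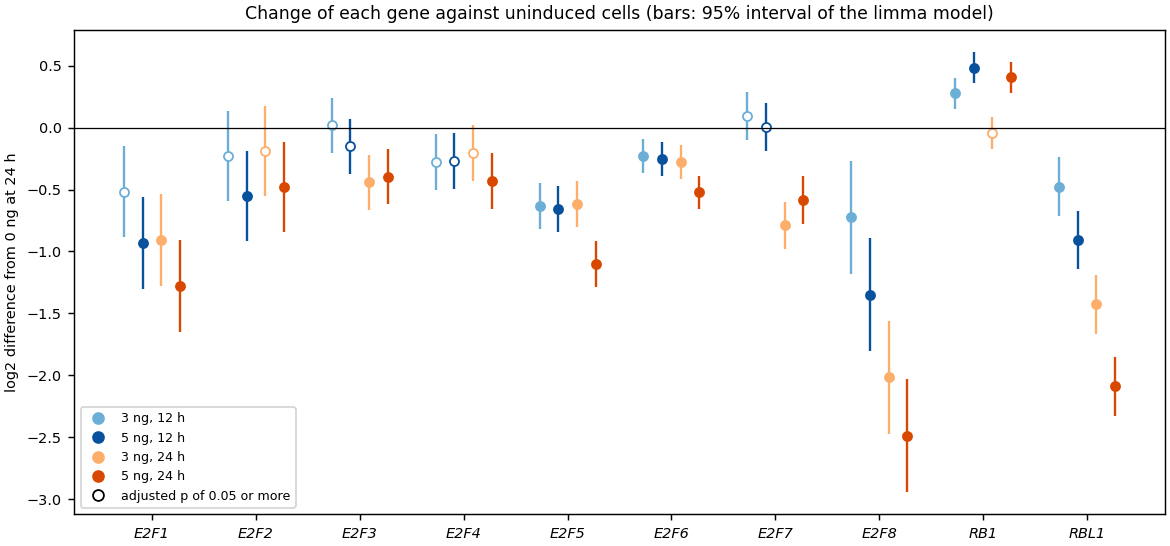
Log2 difference of each gene from 0 ng at 24 h, 1 point for each of the 4 groups with doxycycline and bars for the 95% interval of the limma model; open points did not pass the threshold. At 24 h with 5 ng, 9 points lie below 0 and that of RB1 lies above it.

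At 12 h fewer members had moved. Against 0 ng at 24 h, 4 members fell at 3 ng, namely E2F5, E2F6, E2F8 and RBL1, and RB1 rose, where 15.2% of all genes were called (8.57% fell and 6.61% rose). Arrays did not overlap for 4 members (17.5% of all genes). As deposited E2F4 was the 1 member called, by a fall (1.24% of all genes fell), and 3 members were called without replicate 2 or 4 of 0 ng or with only the compared groups. Of all genes called here 43.5% rose, against 55.9% as deposited and 15.4% after centring, where E2F1 (-0.68) and E2F4 (-0.57) were among 6 members that fell. After quantile normalization E2F1 with -0.52 had not passed (limma adjusted p = 0.057), and passed without replicate 1 of 0 ng (-0.63, limma adjusted p = 0.028). Leaving out each compared array in turn, it ran from -0.632 to -0.415. E2F5 had by then changed by -0.63 ± 0.09 (limma adjusted p = 7.5e-05; -0.68 and no call as deposited), beside -0.62 at 24 h with the same dose. The fall of E2F6, -0.23 (limma adjusted p = 0.021), ended as a call without replicate 3 of 3 ng (-0.19), without replicate 1, 2 or 4 of 0 ng (-0.21, -0.23 and -0.22), and as deposited (-0.42). RBL1 fell by 0.48 ± 0.11 (limma adjusted p = 0.0075; -0.70 and no call as deposited). At 5 ng and 12 h, 6 members fell and RB1 rose, where 25.7% of all genes were called (14.3% fell and 11.5% rose) and the arrays of 8 members did not overlap (25.7% of all genes). As deposited 5 fell (11.5% of all genes). Of the genes called 44.5% rose, and 23% as deposited. E2F1 fell by 0.93 ± 0.18 (limma adjusted p = 0.00058) and RBL1 by 0.91 ± 0.11 (limma adjusted p = 7.1e-06). E2F6 fell by 0.26 (limma adjusted p = 0.0060; -0.51 and no call as deposited). The fall of E2F2, 0.55 (limma adjusted p = 0.024), was no longer called as deposited (-0.66), with centring (-0.55), without replicate 1, 2 or 3 of 0 ng (-0.49, -0.53 and -0.50) and without replicate 2 of 5 ng (-0.50).

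From 12 h to 24 h, 5 members fell at 3 ng, where 16% of all genes were called (6.06% fell and 9.92% rose), and these were E2F3, E2F7, E2F8, RB1 and RBL1. Arrays did not overlap for 6 members (21.1% of all genes). As deposited 5 fell (4.36% of all genes), and after centring 3 did, without E2F3 (-0.42) and RB1. Of the genes called at 3 ng 62.1% rose, against 1.6% as deposited and 44.4% after centring. At 5 ng 5 fell too, where 18.4% of all genes were called (7.6% fell and 10.8% rose), namely E2F5, E2F6, E2F7, E2F8 and RBL1, and as deposited 3 did (3.55% of all genes). Arrays did not overlap for 5 members (21.7% of all genes). Of the genes called at 5 ng 58.7% rose, against 10.7% as deposited and 45.3% after centring. E2F7, E2F8 and RBL1 were thus lower at 24 h than at 12 h at both doses. E2F8 changed by -1.29 ± 0.22 at 3 ng and -1.14 ± 0.22 at 5 ng, and RBL1 by -0.95 ± 0.11 and -1.18 ± 0.11. E2F5 differed by little at 3 ng (0.01, 95% interval -0.17 to 0.20) and fell at 5 ng by 0.44 ± 0.09 (limma adjusted p = 0.0016; -0.62 and no call as deposited). E2F6 had differences of -0.05 at 3 ng and -0.27 at 5 ng, of which the latter passed (limma adjusted p = 0.0068), and did not pass as deposited (-0.42) or after centring (-0.26).

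Between the doses at 24 h, 4 members were called, with 10.4% of all genes (4.42% fell and 5.96% rose). E2F5, E2F6 and RBL1 were lower and RB1 was higher at 5 ng, and the arrays of 5 members did not overlap (17.3% of all genes). No member was called as deposited in limma (0 calls, with 2.54% of all genes called). At an unadjusted p under 0.05 there were 3, and the share of all genes at that threshold was not counted. After centring E2F5 and RB1 were called, with 946 of the 18417 genes. Of all genes called 57.4% rose, against 70.3% as deposited and 76.5% after centring. At 12 h RBL1 was the single member called, where 2.75% of all genes were (0.424% fell and 2.32% rose), and the arrays of 3 members did not overlap (7.88% of all genes). As deposited limma called 0 members and 0.0217% of all genes. There 3 members had an unadjusted p under 0.05, for which the share of all genes was not counted either. The share of calls that rose was 84.6%, against 100% as deposited and 98.5% after centring. Whether the dose difference itself changed with time was tested as an interaction, the difference of 5 ng and 3 ng at 24 h minus that at 12 h. No member passed in limma (0 calls), where 0.0706% of all genes passed at the same adjusted threshold. At an unadjusted p under 0.05 there were 4 members. The share of all genes at that threshold was not counted, so nothing is read from this number. The values of the members ran from -0.46 ± 0.13 for E2F5 (limma adjusted p = 0.30) to 0.30 ± 0.13 for E2F7 (limma adjusted p = 0.76), with RB1 at 0.24 ± 0.08 (limma adjusted p = 0.58).

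The order of the group means separated the members. In E2F8 and RBL1 the order was 0 ng, 3 ng at 12 h, 5 ng at 12 h, 3 ng at 24 h and 5 ng at 24 h from high to low. For RBL1 each neighbouring pair that the model compared passed, with the limits given above for the doses at 12 h, and 5 ng at 12 h lay 0.52 above 3 ng at 24 h with no overlap of the arrays. For E2F8 the arrays of each neighbouring pair overlapped. E2F1 had 0 ng first and 5 ng at 24 h last, and no neighbouring pair compared in its order passed. In E2F5 the first step, from 0 ng to 3 ng at 24 h, and the last, from 5 ng at 12 h to 5 ng at 24 h, passed, and the middle neighbours differed by 0.01 and 0.03. E2F6 had the same shape, with its first and last steps past the threshold. For E2F7 and E2F3 the 12 h groups and 0 ng came first. In E2F2, E2F3 and E2F4 no neighbours differed past the threshold. RB1 had 5 ng at 12 h first and 3 ng at 24 h last, and its one passing step was from 3 ng at 12 h down to 0 ng. That step of RB1 turned its sign after centring. As deposited, none of the passing steps of E2F6, RB1 and RBL1 was called, nor was the last step of E2F5, so that these orders depend on the scaling.

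Over the 20 arrays, which share the same 5 groups, E2F8 and RBL1 were the most alike pair of members (Pearson r = 0.96), followed by E2F5 and E2F6 (0.90), by RBL1 with E2F6 (0.865) and with E2F5 (0.85), and by E2F1 and E2F8, and E2F3 and E2F7 (0.84 each). RB1 had r between -0.59 with E2F5 and 0.29 with E2F7. Likeness to other genes is given for the 4 members whose group means spanned at least 1 log2 unit, as the 3 genes of highest r over the 20 arrays. For RBL1 these were DSN1, a kinetochore gene (0.995), PRIM2, a primase subunit (0.995), and WDHD1, a replication factor (0.994). For E2F8 they were CDK2, the kinase of S phase entry (0.98), TCF19 (0.98) and RFC4, a subunit of the clamp loader (0.97). For E2F1 they were TEDC1 (0.91), PRMT1, an arginine methyltransferase (0.91), and RAB27A, a GTPase of vesicle transport (0.90). For E2F5 they were SLC25A33, a mitochondrial carrier (0.95), DCTPP1, a nucleotide pyrophosphatase (0.94), and PUS7, a pseudouridine synthase (0.94).

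The genes that work with the family were read from 8 lists, whose counts at 24 h stand beside 12.5% of all genes that fell and 15.4% that rose at 3 ng, and 17.2% and 20.6% at 5 ng. The G1/S target genes of E2F went furthest, since all 21 measured of 22 listed fell at 3 ng and at 5 ng after 24 h, also as deposited, with a median of -1.60 and -2.49. CCNA2, the S phase cyclin, changed by -3.90 ± 0.15 at 5 ng (14.9-fold lower), CDC6, which loads the replicative helicase, by -3.50 ± 0.17, MCM10, a replication initiation factor, by -3.06 ± 0.17 and ORC1, of the origin recognition complex, by -2.93 ± 0.16. Between the doses at 24 h 16 of the 21 fell (14 as deposited), where 4.42% of all genes fell. At 12 h 6 fell between the doses (0 as deposited), where 0.424% of all genes fell. Of the 8 genes of the MuvB core, DREAM and B-MYB/FOXM1, 6 fell and 2 rose at each dose, with a median of -0.67 at 5 ng. FOXM1, the regulator of mitotic genes, changed by -3.15 ± 0.18, MYBL2, the B-MYB gene, by -2.98 ± 0.17, LIN9 by -1.95 ± 0.17 and LIN52 by -0.84 ± 0.10, all at 5 ng. The 2 that rose were LIN37 (0.56) and RBL2 (0.43), named after their values were seen. RBL2 is the p130 gene, the pocket protein of resting cells. Neither rose as deposited (0.19 and 0.05).

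Of the 8 cyclins and kinases that phosphorylate RB, 5 fell and 0 rose at 5 ng and 24 h (median -0.69), and 4 fell at 3 ng (6 as deposited). CCNE2, an E-type cyclin, changed by -3.66 ± 0.21 at 5 ng, its partner kinase CDK2 by -2.09 ± 0.12, CCNE1 by -1.48 ± 0.11 and CDK4, the kinase of D-type cyclins, by -1.22 ± 0.09. Among 6 measured CDK inhibitors of 7 listed, 2 rose and 2 fell at 5 ng (1 and 2 as deposited), where 20.6% of all genes rose and 17.2% fell. CDKN1A rose by 1.76 ± 0.07 (3.40-fold) and CDKN2B, the p15 gene, by 0.50 ± 0.06 (0.18 and no call as deposited), and CDKN1B, the p27 gene, and CDKN2A changed by -0.55 each. TFDP1, the main DP partner of E2F proteins, changed by -1.17 ± 0.09 and TFDP3, a signal near the bottom of the scale (means 0.83 and 1.46), by -0.63 ± 0.18, the 2 falls among 3 partners at 5 ng.

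Of 8 chromatin co-repressors bound by RB proteins, 5 fell and 1 rose at 5 ng (6 and 0 as deposited), the riser being KDM5A, named after its value was seen (0.45, and 0.06 with no call as deposited), with SUV39H1, a histone methyltransferase, at -1.84 ± 0.16, CBX5, the HP1 alpha gene, at -1.53 ± 0.08, DNMT1, the maintenance DNA methyltransferase, at -1.38 ± 0.09 and HDAC2 at -0.49 ± 0.06. Of 7 measured partners of E2F6 in PRC1.6, 4 fell and 1 rose, MAX, also named after its value was seen, by 0.16 (5 and 0 as deposited, with MAX at -0.23), with PCGF6 at -0.93 ± 0.12, MGA at -0.85 ± 0.11, CBX3 at -0.55 ± 0.07 and L3MBTL2 at -0.37 ± 0.08. Of 4 germline genes known to be repressed by E2F6, 1 rose at 5 ng, where 20.6% of all genes rose. It was MAEL, by 1.07 ± 0.25 (limma adjusted p = 0.0017), from a mean of 1.11 to 2.18, dim values near that of the endothelial marker PECAM1 (1.63, percentile 9.6). At 3 ng and 24 h 0 of these 4 passed in limma, with MAEL at an unadjusted p of 0.035. The medians of the lists at 5 ng stand beside a median of 0.07 over all genes, and the members' own median of -0.55 lay between those of the RB co-repressors (-0.46) and of the DP partners (-0.63). The median of the DP partners is the middle of 3 values and thus that of TFDP3 itself, a signal near the bottom of the scale, so that this order rests on 1 dim gene.

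**Figure D3:**
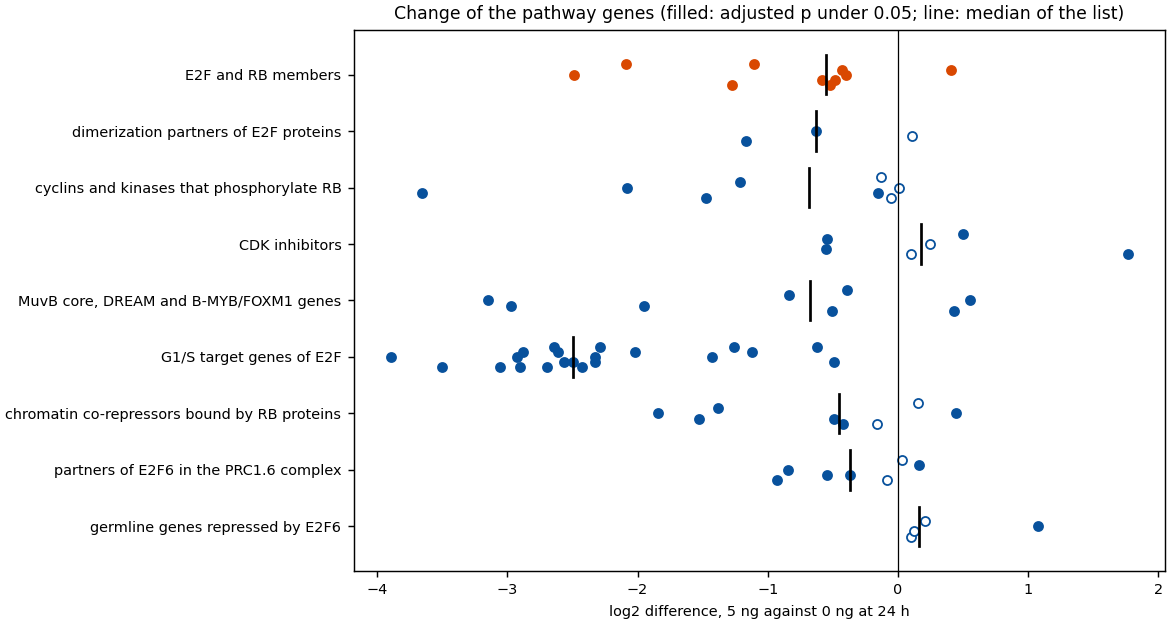
Log2 difference of each measured gene, 5 ng against 0 ng at 24 h, by list, with 1 point per gene, filled points past the threshold and a line at the median of the list. The G1/S target genes of E2F lie furthest to the left with a median of -2.49, and the CDK inhibitors have a median of 0.17.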

How the data were processed

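Total RNA of B5/589 cells was labelled with biotin and hybridised to 20 Affymetrix arrays, 5 groups of 4 given by the titles. The authors deposited log2 signals for 33297 transcript clusters. Per the submitters' processing notes the tools were GCRMA, limma, GCOS and Affymetrix Power Tools, listed with no version, role or order, and how arrays were scaled is not stated in them. Signals were quantile-normalized over all clusters in limma 3.58.1 (R 4.3.3). Genes were named from the 19460 clusters with 1 symbol (1754 had several and 12083 none), with the brightest cluster for each of 769 genes that had more, which gave 18417 genes. Of these clusters 19429 matched a current record by Entrez identifier, and 0 symbols changed.

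A limma model with 1 mean per group (15 residual degrees of freedom, eBayes) gave 8 pairwise comparisons and the interaction, and was tested on simulated data. The number of arrays limits the precision, and 0 array pairs were identical. CDKN2C, RNF2, KRT17 and TP63 are not analysed here. The members, lists and tests were chosen with earlier results of these data known. Named genes are all members, CDKN1A, up to 4 called genes per list with the largest change at 5 ng and 24 h, and the 3 genes most alike each member that spans 1 log2 unit. LIN37, RBL2, KDM5A and MAX, the risers of their lists, are outside that rule and were named after their values were seen. Motifs were counted by exact match in RefSeq windows.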

Additional observations from a re-analysis of the deposited data

Results flagged for a closer look

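On the arrays of 5 ng at 12 h, replicate 2 stood apart in E2F8. It read 5.27, where the other arrays of the group lay between 4.58 and 4.68, and the gap was 0.864 of the whole range, above Dixon's critical value for 4 arrays. It was the 1 group of 50 tested (10 genes in 5 groups) that stood out in this way, and chance gives about 1 in 20. The same array had the highest signal of its group for RBL1 (8.34, against 7.79 to 7.89). At 3 ng and 12 h, replicate 2 was likewise the highest for E2F8 (5.87, against 5.13 to 5.39) and RBL1 (8.66, against 8.28 to 8.38). In the 24 h groups replicate 2 was not the highest for E2F8.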

How the results depend on the processing

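Of the 90 member changes (10 genes in 9 comparisons), 62 kept direction and side of the threshold as deposited, 69 after centring every array on its own median, and 87 without the dimmest 30% of genes. The mean of a gene's clusters cannot alter a member, since each has 1 cluster. The cause of the changes below was not tested. As deposited, limma called 0 members between the doses at 24 h and 0 at 12 h, 1 at 12 h with 3 ng against 0 ng, and 3 from 12 h to 24 h at 5 ng. After centring, 2 members were called between the doses at 24 h, 0 at 12 h, and 3 from 12 h to 24 h at 3 ng. With only the compared groups, which leaves fewer arrays in the fit, 0 were called between the doses at 12 h and 3 at 12 h with 3 ng, and without the dimmest genes 2 were called between the doses at 12 h. Leaving out 1 array gave 0 to 1 members called between the doses at 12 h and 3 to 5 at 12 h with 3 ng.

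Signs turned for small changes, of which the rise of RB1 at 12 h with 3 ng was the 1 called. As deposited these were E2F4 between the doses at 12 h (-0.045), E2F3 (-0.123) and E2F7 (-0.14) at 12 h with 3 ng, E2F7 at 12 h with 5 ng (-0.255), E2F2 (-0.295), E2F4 (-0.187) and E2F5 (-0.283) over time at 3 ng, and E2F2 over time at 5 ng (-0.103). After centring they were E2F5 (0.02), E2F6 (0.105) and E2F7 (0.078) between the doses at 12 h, E2F3 (-0.202), E2F7 (-0.22) and RB1 (-0.042) at 12 h with 3 ng, E2F7 at 12 h with 5 ng (-0.142), and the interaction of E2F1 (-0.02). Without the dimmest genes, which removes TFDP3, the median of the DP partners minus that of all genes became -0.101 between the doses at 12 h and -0.165 over time at 3 ng. With 1 array left out, E2F4 ran from -0.057 to 0.113, E2F5 from -0.103 to 0.021 and E2F6 from -0.065 to 0.021 between the doses at 12 h, and E2F3 from -0.012 to 0.091 between them at 24 h. Against 0 ng, E2F3 at 12 h with 3 ng ran from -0.063 to 0.083 and E2F7 with 5 ng from -0.054 to 0.069. Over time, E2F2 ran from -0.024 to 0.104 at 3 ng and from -0.089 to 0.25 at 5 ng, and E2F5 at 3 ng from -0.063 to 0.061. The interaction ran from -0.124 to 0.235 for E2F1, from -0.133 to 0.207 for E2F2 and from -0.042 to 0.348 for E2F8.

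All genes called between the doses numbered 1911 at 24 h (468 as deposited, 946 after centring) and 506 at 12 h (4 and 206). At 12 h with 3 ng against 0 ng they numbered 2797 (519 as deposited, and more, 3620, after centring). With 5 ng they numbered 4742 (2750 as deposited, 3046 after centring), and over time 2943 at 3 ng (816 and 883) and 3386 at 5 ng (731 and 1246). At 24 h against 0 ng they numbered 5142 with 3 ng (4504 as deposited, 3175 after centring) and 6958 with 5 ng (5166 and 4902). The main model did not take the replicate numbers as pairs. Arrays of 1 number deviated together with r from -0.029 to 0.217 over 40 pairs (mean 0.073, against -0.024 between numbers). These values are small, but 20 of 20 arrays correlated best with their own number (13 of 20 as deposited). The numbers thus carry some shared variation, which the main p-values leave in the spread. With replicate number as a block, 89 of 90 member changes kept their side of the threshold, and E2F4 at 12 h with 5 ng passed (-0.269, limma adjusted p = 0.047). The block raised the calls over all genes in each of the 8 pairwise comparisons, between the doses from 506 to 834 at 12 h and from 1911 to 2489 at 24 h.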
